A study of Mus musculus with 441 samples.

Results

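The genes described here encode the subunits, activators and assembly chaperones of the proteasome, the protease that degrades ubiquitin-tagged proteins. They were taken by symbol, as every gene named Psma, Psmb, Psmc, Psmd or Psme followed by a digit, leaving out processed pseudogenes. The rule found 44 of the 13561 genes of the table. One of them, Psmc3ip, encodes a meiotic recombination factor that is no proteasome protein, so groups and counts below cover the other 43 genes.

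The transcripts were read in 441 single mouse cells from pancreatic islets, each sorted with a tetramer as a CD4 T cell specific for beta cells and sequenced as a full-length SMART-Seq2 library. A tetramer is a set of linked MHC class II molecules with a bound peptide that stains T cells of matching receptor. The labels name a HIP tetramer sort (184 cells) and an Ins tetramer sort (257 cells), without spelling out either, and give no strain, genotype, treatment or age. The authors' classes in the HIP sort were 111 T follicular helper (Tfh) cells, 3 regulatory T cells (Tregs), 61 activated and 9 dividing CD4 T cells, and in the Ins sort 61 Tfh, 115 Treg, 25 activated and 35 dividing cells and 21 cells of a cluster 4 that carries a B cell label.

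No animal is named, so each sort is 1 sample, no comparison has a replicate check and no test was made. The authors' classes rest on the same transcript levels that are described here, so differences between classes are descriptions. Levels are mean TPM, each transcript's length-corrected share of a total of 1000000, so levels of different genes can be set side by side. A gene was counted as detected in a cell at 1 TPM, and shares of cells carry exact Clopper-Pearson 95% intervals, which cover counting error only. The spread behind a mean is the SD over cells, which is not replicate error. Cell numbers fell into 5 blocks of 96 consecutive numbers, 2 HIP and 3 Ins, which the labels do not describe. They serve only to show spread within a sort.

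TPM keeps no sequencing depth, for which the number of genes listed above 0 must stand in. Its median was between 1862 and 2075 genes in the Tfh, Treg and activated classes of at least 25 cells, 3992 in HIP dividing cells, 3610 in Ins dividing cells and 2477 in cluster 4. The 6 markers of dividing cells summed to a mean of 1432 TPM in the HIP dividing group and 1344 TPM in the Ins one, against 29.7 TPM in non-dividing T cells. In cluster 4, Cd4 was at 0 in all 21 cells, at least 1 of 5 CD4 T cell markers was detected in 14.3% of cells, and at least 1 of 4 B cell markers and of 5 antibody-secreting cell markers was detected in 100% of cells. Igj, the joining chain of secreted immunoglobulin, took 12.7% of all TPM there. The dividing groups differed in make-up: Foxp3, the Treg lineage factor, was detected in 77.1% of Ins dividing cells (95% interval 59.9 to 89.6) and in 0 of 9 HIP dividing cells, where 3 cells of the total, the limit taken for a count of 0, are 33.3% and the exact upper bound is 33.6%.

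The proteasome core, the 20S particle, is a barrel of outer alpha rings and inner beta rings, and 3 kinds of beta subunit carry the active sites. In lymphocytes and under interferon gamma, newly made barrels take in Psmb8, Psmb9 and Psmb10 in place of the constitutive Psmb5, Psmb6 and Psmb7, and this immunoproteasome is known for cutting peptides that fit MHC class I. The 19S cap, with a base of ATPases and a lid that holds a deubiquitinase, feeds ubiquitin-tagged proteins into the barrel. PA28 caps made of Psme1 and Psme2, also induced by interferon gamma, open the barrel without ubiquitin or ATP.

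Promoter sequence is shown for 4 genes on which the comparisons below turn: an interferon-induced cap subunit (Psme1), an immunoproteasome subunit (Psmb8) and 2 constitutive catalytic subunits (Psmb5 and Psmb6). Each runs 5′ to 3′ on the gene's strand from 250 bases before to 30 after the annotated start in RefSeq's GRCm38.p6 annotation. Capitals mark matches to a motif searched on both strands: AANNGAAA, a core bound by interferon regulatory factors, in Psme1, where both matches overlap; TTCNNNGAA, the GAS element bound by STAT factors, in Psmb8; and TGACNNNGC, the antioxidant response element bound by NRF factors, in Psmb5 and Psmb6.
Psme1 (chr14:55578244-55578523, plus strand): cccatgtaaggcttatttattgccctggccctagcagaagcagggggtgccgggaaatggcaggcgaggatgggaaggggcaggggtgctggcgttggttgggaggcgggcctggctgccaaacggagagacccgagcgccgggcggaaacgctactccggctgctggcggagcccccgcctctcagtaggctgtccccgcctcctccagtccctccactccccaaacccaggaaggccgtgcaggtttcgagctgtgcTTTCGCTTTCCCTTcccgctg
Psmb8 (chr17:34197945-34198224, plus strand): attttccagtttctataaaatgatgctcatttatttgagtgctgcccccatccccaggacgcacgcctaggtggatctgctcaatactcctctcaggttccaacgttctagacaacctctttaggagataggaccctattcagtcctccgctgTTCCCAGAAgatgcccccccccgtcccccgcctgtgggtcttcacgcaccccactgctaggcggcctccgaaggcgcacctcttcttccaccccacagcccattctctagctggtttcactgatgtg
Psmb5 (chr14:54617966-54618245, minus strand): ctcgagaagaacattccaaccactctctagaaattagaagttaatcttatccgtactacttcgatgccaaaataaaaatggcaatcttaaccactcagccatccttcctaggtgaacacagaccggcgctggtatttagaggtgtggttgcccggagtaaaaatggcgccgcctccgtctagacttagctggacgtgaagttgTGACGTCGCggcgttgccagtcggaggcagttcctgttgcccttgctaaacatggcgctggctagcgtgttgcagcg
Psmb6 (chr11:70525107-70525386, plus strand): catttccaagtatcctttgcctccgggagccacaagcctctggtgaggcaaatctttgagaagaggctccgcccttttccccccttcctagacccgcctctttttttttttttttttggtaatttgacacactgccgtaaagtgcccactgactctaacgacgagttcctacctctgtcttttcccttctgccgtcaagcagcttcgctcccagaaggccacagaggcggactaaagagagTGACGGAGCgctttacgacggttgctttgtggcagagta

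Of the 44 members, 37 were matched in the promoter table, whose windows run to 50 bases after the start. Members were counted as genes with a match in any of their windows, and the background as single windows. The AANNGAAA core stood in 11 of the 37 (29.7%), against 23.9% of all 32851 windows. The constitutive Psmb6 was among the 11 as well as Psme1. Capitals above mark only the motif named for each gene, so the AANNGAAA match of Psmb6 is left unmarked. TTCNNNGAA stood in 2 (5.41%), Psmb8 and the 19S subunit Psmd2, against 8.30% of all windows. TGACNNNGC stood in 6 (16.2%) against 12.4%, and CCAAT, searched as a common promoter element, in 15 (40.5%) against 37.4%. The matches in Psme1 began 9 and 15 bases after the start, and those in Psmb8, Psmb5 and Psmb6 began at -97, -47 and -9. For Psmb6 the start in the promoter table lies downstream of the gene's start in the gene annotation, 70525324, and -9 is counted from the former. A match is a run of letters and not a shown binding site.

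Psmb8 and Psmb9 of the immunoproteasome, and Psme1 and Psme2 of PA28, were among the most abundant members in non-dividing T cells. The non-dividing T cells are the 376 Tfh, Treg and activated cells of both sorts. Psmb8, the immunoproteasome's chymotrypsin-like subunit, led with a mean of 1660.4 ± 1520 TPM (SD over cells), a median of 1333 TPM and a highest cell at 9179 TPM. It was detected in 86.2% of cells (82.3 to 89.5) and ranked 90 among all genes by mean TPM. Psme2, the beta subunit of PA28, followed at 1050.1 TPM in 72.1% of cells (67.2 to 76.6), and its partner Psme1, the alpha subunit, had 803 TPM and was detected in 59.0% (53.9 to 64.1). Psmb9 had 647 TPM, also in 59.0% of cells, while Psmb10 had 165 TPM in 27.9% (23.4 to 32.8).

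The constitutive catalytic subunits lay lower than Psmb8 and Psmb9. Psmb6 had 521 TPM and was detected in 48.9% of the non-dividing T cells (43.8 to 54.1). Psmb5 had 356 TPM in 33.2% (28.5 to 38.3), and Psmb7 had 157 TPM in 24.7% (20.5 to 29.4). The SD over cells exceeded the mean for each of these 3 genes, as it did for Psmb9 and Psmb10.

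Structural core transcripts spanned a similar range. Psmb1 was the third most abundant member at 961 TPM, and the other structural beta subunits Psmb3, Psmb2 and Psmb4 had 691, 484 and 397 TPM. Alpha ring subunits, which form the gate of the barrel, ran from 309 TPM for Psma4 to 806 TPM for Psma2. Transcripts of the 19S cap were lower: the 6 ATPases lay between 140 TPM (Psmc6) and 287 TPM (Psmc4), and the 11 other 19S subunits between 70.8 TPM (Psmd1) and 358 TPM (Psmd4, a ubiquitin receptor). Psmd14, the deubiquitinase of the lid, had 215 TPM and was detected in 30.6% of cells.

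The remaining activators and the tissue-restricted subunits were rare or at low levels. Psme3, which forms the nuclear PA28 gamma cap, had 14.5 TPM and was detected in 4.0% of the non-dividing T cells (2.2 to 6.5). Psme4, the PA200 cap, had 4.9 TPM in 5.3% (3.3 to 8.1). The testis subunit Psma8 was detected in 2 of the 376 cells. Psmb11, the thymic cortical catalytic subunit, reached 1 TPM in 64.9% of cells but its mean was 2.2 TPM, and at 10 TPM it was detected in 1.9%. Psmd9, an assembly chaperone of the 19S base, likewise went from 50.0% at 1 TPM to 13.3% at 10 TPM, while its fellow chaperones Psmd10 and Psmd5 had 95.6 and 71.3 TPM in 15.2% and 12.2% of cells. Between these thresholds the share of cells moved beyond its interval for 2 of the 43 genes, Psmb11 and Psmd9.

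**Figure D1:**
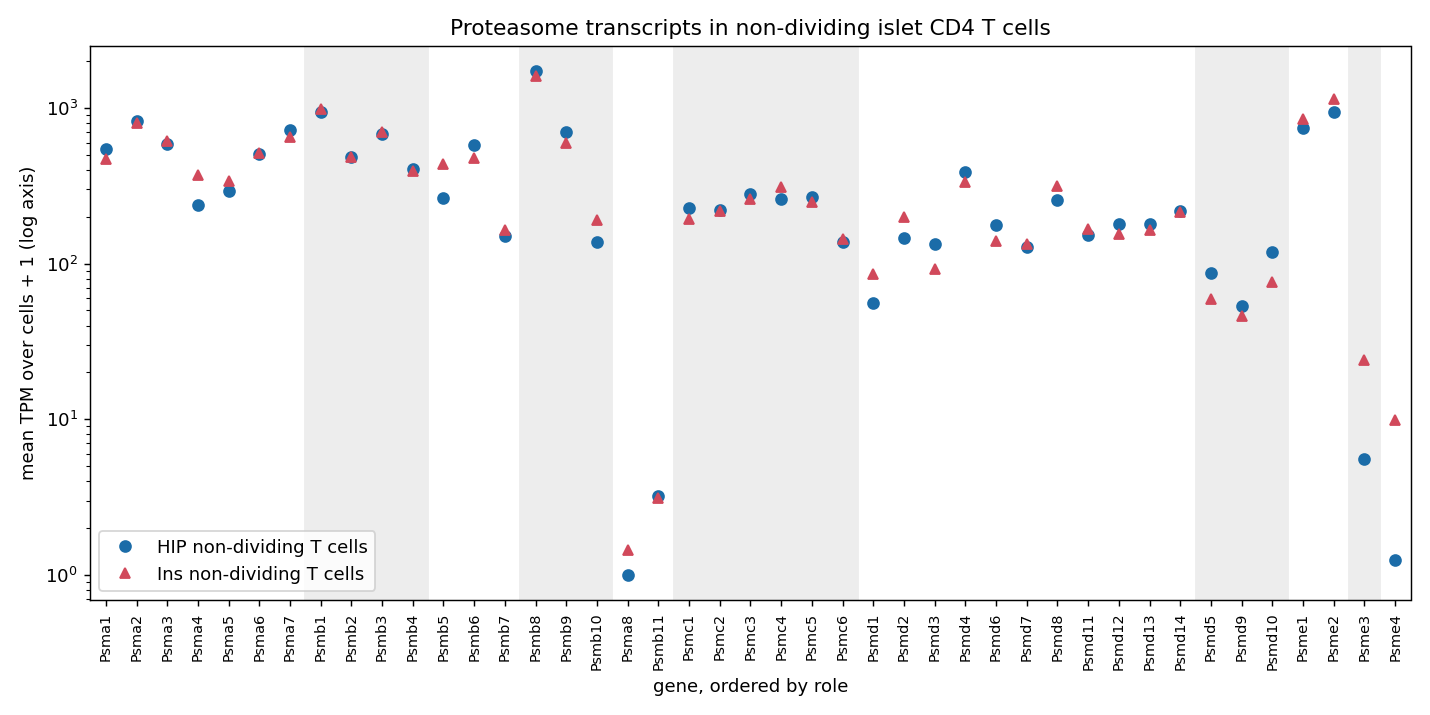
Mean TPM over cells plus 1 (log axis) of each of the 43 proteasome genes in non-dividing T cells of the HIP sort (circles, 175 cells) and the Ins sort (triangles, 201 cells), ordered by role with shading that parts the roles (alpha ring, structural beta, constitutive catalytic, immunoproteasome, tissue-restricted core, 19S ATPases, other 19S subunits, assembly chaperones, PA28 alpha and beta, PA28 gamma, PA200). Psmb8 is the highest point in both sorts, and Psma8, Psmb11 and Psme4 are the lowest in the HIP sort.

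Within each catalytic pair, the immunoproteasome transcript held most of the beta 5 pair and about an equal part of the other pairs. Psmb8 made up 82.4% of the summed mean TPM of Psmb8 and Psmb5 in the 376 non-dividing T cells. Psmb9 made up 55.4% of its pair with Psmb6, and Psmb10 made up 51.3% of its pair with Psmb7. Cell by cell, 136 of 175 HIP and 148 of 201 Ins non-dividing T cells had more Psmb8 than Psmb5.

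The division of the beta 5 pair differed between classes and sorts, with a spread between blocks. Psmb8 held 86.1% of the pair in HIP Tfh cells and 87.8% in HIP activated cells, and 80.7%, 77.4% and 78.3% in Ins Tfh, Treg and activated cells. In Tfh cells the block values were 90.8% and 80.0% in HIP and 75.8% to 84.7% in Ins, which overlap. In activated cells they were 90.9% and 85.1% in HIP and 72.8% to 81.3% in Ins. Psmb5 had 435 TPM in Ins and 265 TPM in HIP non-dividing cells, and Psmb8 had 1602 and 1727 TPM, with its lowest mean among the non-dividing classes of at least 25 cells, 1417 TPM, in Ins Tregs. Dividing cells had 68.5% in HIP and 74.3% in Ins, and cluster 4 had 70.5%. The HIP dividing value joins 48.6% in a block of 2 cells and 73.3% in a block of 7. The Psmb9 pair lay between 50.0% and 58.3% in every class of 9 or more T cells, and stood at 35.9% in cluster 4, where Psmb6 was at 874 TPM and Psmb9 at 489 TPM. The Psmb10 pair was at 36.0% in Ins dividing cells, against 53.8% in Ins and 47.9% in HIP non-dividing cells.

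**Figure D2:**
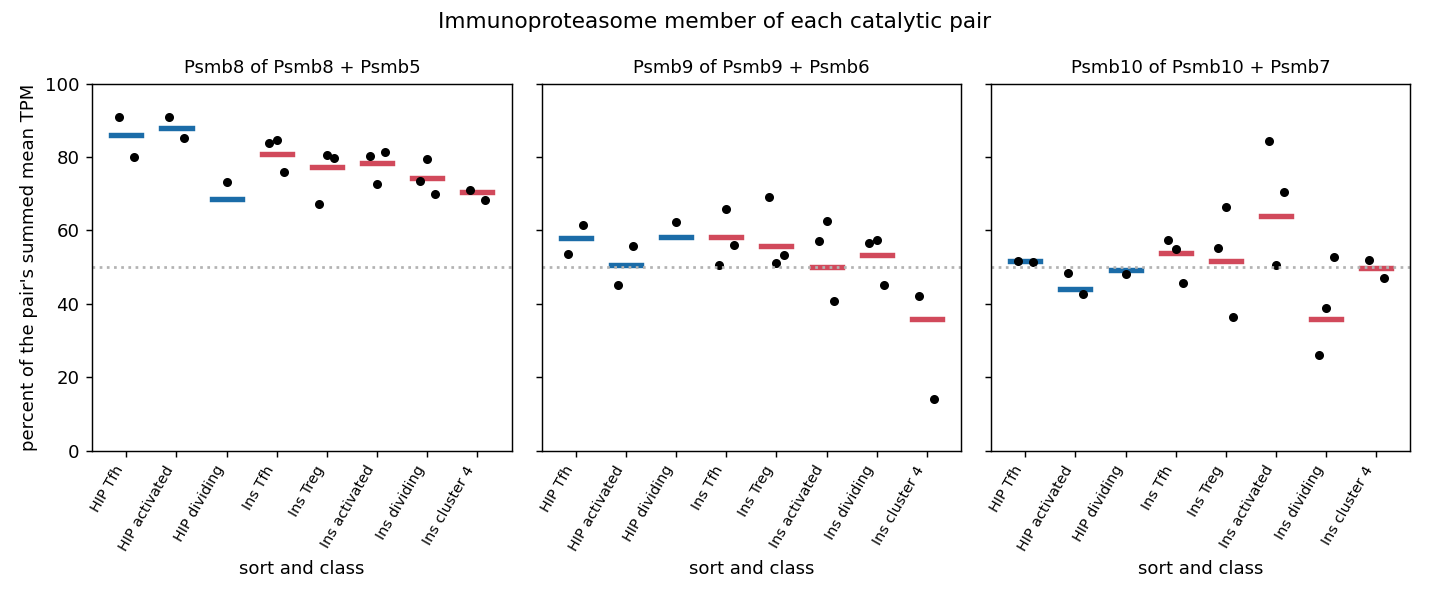
Percent of each catalytic pair's summed mean TPM held by the immunoproteasome member (y axis) in each class of 9 or more cells (x axis), with bars for all cells of the class (blue HIP, red Ins), black points for single blocks of at least 5 cells and a dotted line at equal parts. Psmb8 holds 68.5% to 87.8% of its pair in every class, while the block points of the Psmb10 pair spread widely.

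Most non-dividing T cells lacked a detected transcript of at least 1 immunoproteasome subunit. All 3 were detected in 68 of 376 cells (18.1%), none in 30 (8.0%), and both PA28 subunits in 166 (44.1%). All 3 constitutive subunits were detected in 22 cells (5.9%). In dividing cells, with more genes detected, all 3 immunoproteasome genes were seen in 9 of 9 HIP and 24 of 35 Ins cells, and in cluster 4 in 10 of 21. A transcript that was missed at capture and one that was absent cannot be told apart.

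Summed over all 43 genes, proteasome transcripts took 1.52% of TPM in non-dividing T cells and differed little between their classes. The sum was 15118 ± 4983 TPM in HIP and 15343 ± 4933 TPM in Ins non-dividing cells. Within the HIP sort it was 14706 TPM in Tfh and 16093 TPM in activated cells, and within the Ins sort 15300, 15319 and 15563 TPM in Tfh, Treg and activated cells. The 3 HIP Tregs, too few to compare, had a mean sum of 10558 TPM, with Psmb8 at 2.1 TPM and Psmb9 at 705 TPM. A non-dividing cell had a median of 16 proteasome genes detected, and this number rose with the number of genes listed: from 10 in cells below 1500 genes to 24 in cells with 2500 to 3500. The sum moved less, from a median of 13870 TPM to 16014 TPM over the same bins.

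**Figure D3:**
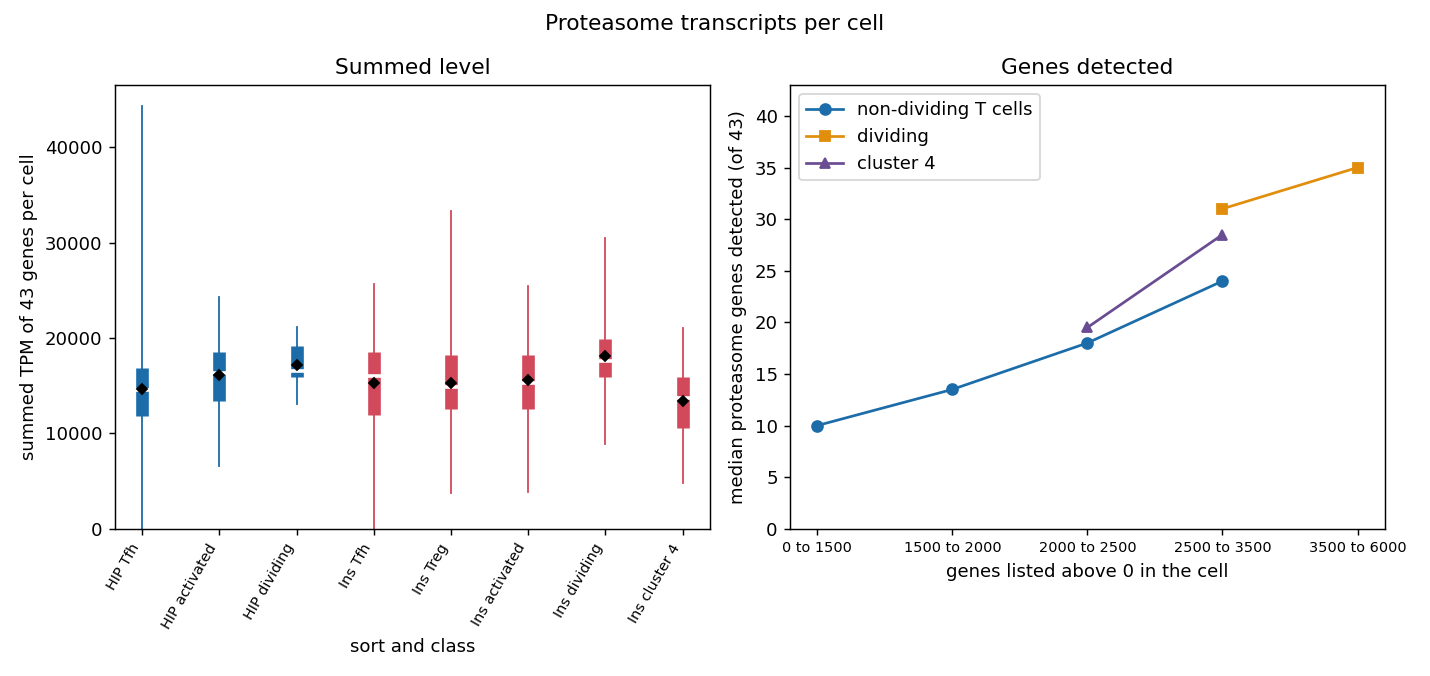
Left: summed TPM of the 43 genes per cell in each class (x axis), with the full range as a line, the quartiles as a box, a white gap at the median and a diamond at the mean (blue HIP, red Ins). Right: median number of the 43 genes detected (y axis) against the number of genes listed above 0 (x axis, bins of at least 5 cells). The dividing cells have the highest sums, and at 2500 to 3500 genes they had 31 proteasome genes detected against 24 in non-dividing cells.

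Proteasome transcripts took a larger share of TPM in dividing cells than in the non-dividing T cells of their sort, mainly those of the core and the 19S cap. The sum of the 43 genes was 18072 TPM in Ins dividing cells, 1.18 times that of the other Ins T cells (1.03 to 1.36 over the 3 blocks), and 17157 TPM in HIP dividing cells, 1.13 times (1.13 to 1.22 over 2 blocks). The gap was smaller among cells of both sorts with 2500 to 3500 genes listed. Their median sum was 17252 TPM in 15 dividing and 16014 TPM in 63 non-dividing cells. The 19S sum was higher by 1.31 times in Ins and 1.32 times in HIP, although in Ins the blocks ranged from 0.97 to 1.55. The immunoproteasome sum stood at 0.96 times in Ins and 1.00 times in HIP, and the PA28 alpha and beta sum at 0.89 and 0.82 times. The median gene ratio of the 43 was 1.23 in Ins and 1.24 in HIP, beside 0.85 and 0.81 over all genes tested.

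A gene entered a comparison when 10% or more of 1 group's cells had it detected, and was called higher or lower at a ratio of mean TPM of at least 1.5 in either direction; a stricter call also asked for the same side of 1 in every block. In Ins dividing cells, 6 of the 42 proteasome genes tested were called higher and 4 lower, beside 20.2% and 35.0% of all 8142 genes tested. By the stricter call 3 were higher and 2 lower, beside 11.8% and 23.5%. The 3 are scaffolds and lid parts of the 19S cap: Psmd6 (266 against 140 TPM, ratio 1.90), Psmd1 (143 against 84.6 TPM, 1.69) and Psmd2 (308 against 198 TPM, 1.56). The 2 lower are Psme1 (567 against 853 TPM, 0.66) and the barely expressed Psmb11 (0.90 against 2.13 TPM, 0.42).

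In HIP dividing cells, 13 of 42 proteasome genes were called higher and 5 lower, beside 25.8% and 41.9% of all 9184 genes tested, and by the stricter call 12 and 5, beside 11.2% and 34.6%. Catalytic subunits were among the higher ones: Psmb5 had 594 against 265 TPM (ratio 2.24), Psmb10 had 299 against 137 TPM (2.18) and Psmb7 had 307 against 150 TPM (2.05). Psmd1, Psmd2 and Psmd6, the 3 genes called by the stricter rule in Ins, had ratios of 2.72, 2.32 and 2.06. The rest of the 12 were Psmd11 (1.70), the ATPase Psmc1 (1.67), the structural beta subunit Psmb4 (1.58), the lid subunits Psmd13 and Psmd7 (both 1.52) and Psme4, which was detected in 4 of 9 dividing cells at a mean of 13.3 TPM and in 3 of 175 others. Psme4 was tested in HIP only because it was detected in the dividing cells, so its call follows from how it entered and is no finding. The 5 lower were the 19S subunit Psmd3 (0.30), the chaperones Psmd10 (0.32) and Psmd5 (0.63), Psmb11 (0.33) and the alpha ring subunit Psma6 (0.49). This group holds 9 cells, 2 of them in 1 block.

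The catalytic and cap genes behaved unevenly in the dividing groups. Psmb8 had a ratio of 0.92 in Ins and 0.75 in HIP, Psmb9 had 1.11 and 1.40, and Psmb6 had 1.23 and 1.22. Psmb3 had 1.43 and 1.21, Psmd14 had 1.23 and 1.09, and Psmd4 had 0.93 and 0.70. Psme2 stood at 1.06 and 0.79 and Psme1 at 0.85 in HIP. Psme3, detected in 20.0% of Ins dividing cells against 5.5% of the others, had a ratio of mean TPM of 0.51 there and 0.99 in HIP. Both catalytic genes with the highest HIP ratios moved less in Ins, where Psmb5 had a ratio of 1.18 and Psmb10 of 0.78, and Psmb7 had 1.63. Psme4 had 0.55 in Ins.

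The share of cells with a transcript and the level in those cells moved apart. In Ins dividing cells the share was higher for 41 of 42 proteasome genes, with a median of 85.7% against 39.1%, but the level where detected was lower for 42 of 42, with a median ratio of 0.56. The same split held over all genes tested, with a higher share for 7371 and a lower level for 7600 of 8142, at medians of 3610 and 2008 genes listed per cell. In HIP the median shares were 88.9% and 33.1% and the median ratio of levels where detected was 0.55. On the scale of mean log2(TPM + 1), which follows the share of cells, the median ratio of the proteasome genes was 12.1 in Ins and 14.0 in HIP. The value over all genes on this scale is not given here, so these ratios cannot be read as particular to proteasome genes.

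Other genes of the pathway gave these values in dividing cells. Of 14 other proteasome genes tested (among them assembly factors, receptors and deubiquitinases), 4 were called higher in Ins and none lower, with a median ratio of 1.28. The assembly chaperone Psmg2 and the shuttle factor Rad23b stood at 2.15, and Adrm1 and Psmf1 at 0.72 and 0.85. In HIP 4 were higher and 4 lower, from Ubqln1 (0.12) and Psmg3 (0.35) to Txnl1 (2.72) and Psmg4 (5.63). Some genes of this list guide the core's assembly or bring ubiquitin-tagged proteins to the 19S cap, and others have different roles. Of 8 ubiquitin and p97 genes, none was higher in either sort and 1 was lower in Ins, with Nploc4 (0.55) and Ufd1l (0.67) lowest; in HIP, Ubb (0.59) was lowest and Rps27a (1.28) highest. MHC class I presentation genes had a median ratio of 0.71 in Ins (1 of 11 higher, 5 lower), from Nlrc5 (0.29) and H2-K1 (0.53) to Calr (1.38) and Canx (1.64), and 0.63 in HIP (none higher, 6 lower), from Tap2 (0.36) and H2-D1 (0.51) to Pdia3 (1.17) and Canx (1.28). Beside these counts, 20.2% of all genes tested were called higher and 35.0% lower in Ins, and 25.8% and 41.9% in HIP. Interferon response genes were lower for 11 of 12 in Ins, with a median of 0.48, from Iigp1 (0.25) and Irf7 (0.27) to Gbp2 (0.64) and Socs1 (1.78). In HIP 6 of 11 were lower, with a median of 0.51, from Socs1 (0.12) and Irf9 (0.16) to Ifi47 (1.04) and Isg15 (1.65). Interferon gamma is known to induce Psme1 and the immunoproteasome genes, and the part of the interferon response in their values was not tested.

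Cluster 4 had the lowest proteasome sum of the 8 groups of 9 or more cells, 13372 TPM, or 0.87 times that of the Ins T cells (0.80 to 1.12 over blocks), and its parts differed. The constitutive catalytic sum was 1.39 times as high (1.33 to 1.68), the immunoproteasome sum 0.74 times (0.65 to 1.21), the ATPase sum 0.66 times (0.54 to 0.89) and the PA28 alpha and beta sum 0.56 times (0.26 to 0.86). The ratios are to non-dividing Ins T cells, and 1 of the 3 blocks held 2 cells of cluster 4. With 12.7% of TPM in Igj and 24.9% in the 10 highest genes, against 9.94% in Ins T cells, less of the TPM total was left to the other genes. The 6 dividing markers summed to a mean of 286 TPM in cluster 4 against 26.9 TPM in the Ins T cells. All 6 were called higher, but only 1 by the stricter call. The medians of the sum were 1.05 and 0.98 TPM, and it reached 1 TPM in 52.4% and 49.8% of cells. The mean in cluster 4 thus rests on part of its cells, the highest at 2492 TPM. The 5 myeloid markers summed to 4174 TPM, with at least 1 detected in 100% of cells, against 1316 TPM and 67.2%, and Lyz2 was at 0 in cluster 4. The list did not move as 1: of the 3 myeloid markers tested, 2 were higher and 1 lower (ratio 0.42), each in every block. The part of these markers in the cluster 4 values was not tested. The median ratio of the 40 proteasome genes tested was 0.82 beside 0.69 over all genes. After rescaling without Rn45s, Igj and Mzb1, which raises all other genes too, the proteasome median was 0.97. This value cannot be set against 0.69, which is from before rescaling.

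In cluster 4, 2 proteasome genes were called higher and 12 lower, beside 22.3% and 48.5% of all 7032 genes tested, and 2 and 8 by the stricter call, beside 8.21% and 37.4%. Psmb6, the constitutive partner of Psmb9, had 874 against 474.6 TPM (ratio 1.84) and Psmd6 had 245 against 140 TPM (1.75). Psme1 had 356 against 853 TPM (0.42), although it was detected in 71.4% of cluster 4 cells against 62.2% of T cells. The ATPases Psmc2 (0.36), Psmc6 (0.46) and Psmc4 (0.59), the lid subunit Psmd11 (0.57), the alpha subunit Psma4 (0.59), Psmd9 (0.65) and Psmb11 (0.35) made up the rest of the 8. Psme2 (0.66) and Psmd4 (0.65) were lower but not in every block. Psmb8, Psmb9 and Psmb10 had ratios of 0.72, 0.82 and 0.67, Psmb3 and Psmb7 0.71 and 0.79, Psmd14 1.00 and Psmb5 1.11. Psmc3ip, which is no proteasome gene and was tested only through its detection in cluster 4, had 2.69.

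Here too the share of cells was higher for 39 of 40 genes, at a median of 61.9% against 40.0%, while the level where detected was lower for 39 of 40. Over all 7032 genes tested the share was higher for 4787, at medians of 23.8% and 16.9%, and the level lower for 5963. The direction of the median ratio of the proteasome genes turned with the scale: it was 2.39 on mean log2(TPM + 1) and 1.60 on mean log2(TPM + 10). Values over all genes on these scales are not given here. All 12 interferon response genes tested were lower, beside 48.5% of all genes, with a median of 0.17, from Irf9 (0.021) and Iigp1 (0.041) to Igtp (0.44) and Socs1 (0.51). Class I presentation genes had a median of 1.30, from Nlrc5 (0.62) and Tap1 (0.63) to B2m (2.34) and the chaperone Calr (4.10). Among other proteasome genes Psmf1 (0.22) and Psmg3 (0.47) were lowest and Rad23b (3.33) and Txnl1 (3.37) highest. The p97 ATPase Vcp stood at 1.56 and Rps27a at 1.15, and Uba1 and Nploc4 at 0.29 and 0.68.

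**Figure D4:**
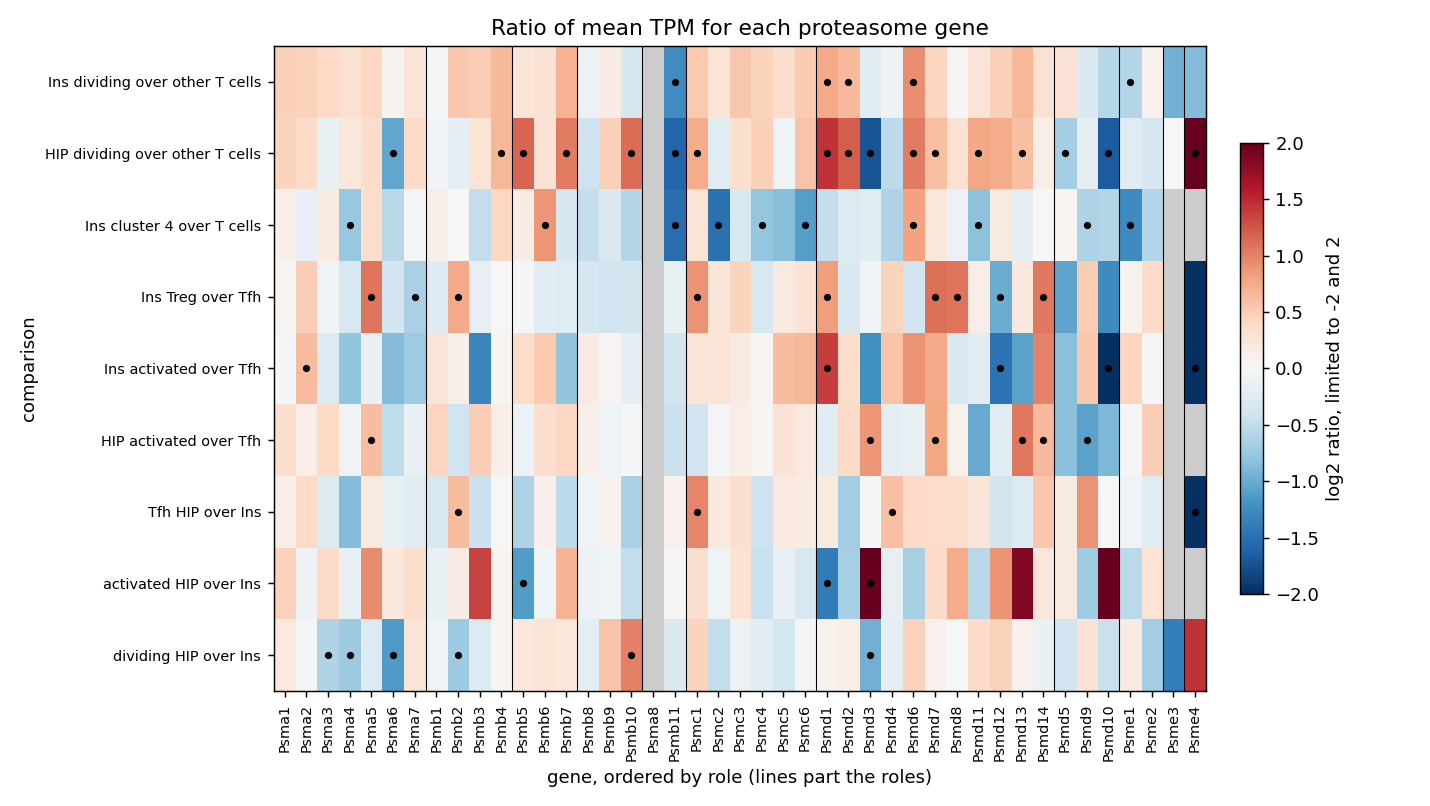
Log2 ratio of mean TPM (colour, limited to -2 and 2) of the 43 proteasome genes (x axis, ordered by role) in the 9 comparisons (y axis); a dot marks a ratio of at least 1.5 in either direction that lies on the same side of 1 in every block, and grey marks a gene detected in under 10% of both groups. Psmd1, Psmd2 and Psmd6 are dotted in both dividing rows, and the immunoproteasome columns Psmb8 and Psmb9 hold no dot.

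Tregs and Tfh cells of the Ins sort had equal proteasome sums, at a ratio of 1.00 (0.96 to 1.03 over blocks), while some transcript groups differed. The 19S sum was 1.21 times as high in Tregs (1.08 to 1.35) and the immunoproteasome sum 0.79 times (0.61 to 0.94). Psmb8, Psmb9 and Psmb10 had ratios of 0.79, 0.77 and 0.78, and none of them was called. Psmb9 was lower in Tregs in every block. In the last block Psmb8 was level, at 1901 TPM in Tregs and 1893 TPM in Tfh cells. Psmb10 was higher in Tregs there (126 against 122 TPM) and in the middle block (227 against 174 TPM). Of 41 genes 7 were called higher and 5 lower, beside 24.3% and 27.9% of all 6061 genes, with a median ratio of 0.97 beside 0.96. By the stricter call 7 were higher and 2 lower, beside 15.3% and 13.0%. The 7 hold 4 lid and base subunits, Psmd7 (164 against 76.8 TPM, 2.14), Psmd8 (409 against 194 TPM, 2.10), Psmd14 (254 against 122 TPM, 2.07) and Psmd1 (91.6 against 51.3 TPM, 1.79), with Psma5 (2.11), Psmc1 (1.87) and Psmb2 (1.70). The 2 lower are Psmd12 (0.50) and Psma7 (0.64). The lowest ratios not kept in every block were Psme4 (0.22), Psmd10 (0.42) and Psmd5 (0.48), all tested only through their detection in Tfh cells.

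The remaining catalytic and cap genes had ratios of 0.85 to 1.36 for Tregs over Tfh cells. Psme2 had a ratio of 1.30, Psme1 1.05 and Psmd4 1.36. Psmb5, Psmb6, Psmb7 and Psmb3 had 0.97, 0.86, 0.85 and 0.89. Among other genes of the pathway, Pomp, the chaperone that assembles the core, stood at 1.99 and Psmg3 at 2.11, while Psmg1 (0.26) and Ubqln1 (0.75) were lowest. Interferon response genes had a median ratio of 1.47 with 6 of 12 higher beside 24.3% of all genes, led by Irf7 (5.93) and Gbp2 (3.58), with Isg15 (0.47) and Irgm1 (0.64) lowest. Class I genes had a median of 1.34 with 2 of 11 higher, from Canx (0.72) and Tap2 (0.79) to B2m (1.60) and Erap1 (2.42). Ubb stood at 1.46, Uba1 at 1.23, Rps27a at 0.70 and Ufd1l at 0.84.

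Activated cells were compared with Tfh cells in each sort; in Ins they share the Tfh cells with the Treg comparison. In Ins, with 25 activated cells, 7 of 41 proteasome genes were called higher and 11 lower, beside 27.9% and 33.2% of all 6159 genes, and 2 and 3 by the stricter call, beside 8.98% and 17.5%. Psmd1 had 134 against 51.3 TPM (2.60) and Psma2 had 948 against 611 TPM (1.55). Psmd10 (0.13), Psme4 (0.23) and Psmd12 (0.36) were lower, although Psmd10 and Psme4 were tested only through their detection in Tfh cells, which makes no finding of their calls. Psmb3 had 330 against 812 TPM (0.41) without keeping that side in every block. The highest after Psmd1 were Psmd14 (1.99) and Psmd6 (1.87).

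In HIP, with 61 activated cells, 5 of 40 genes were higher and 4 lower, beside 21.9% and 27.6% of all 5835 genes, and 5 and 1 by the stricter call, beside 16.5% and 22.8%. Psmd13 had 274 against 132 TPM (2.07), Psmd3 had 184 against 99.7 TPM (1.84), Psmd7 had 168 against 97.9 TPM (1.71), Psmd14 had 283 against 180.1 TPM (1.57) and Psma5 had 368 against 241 TPM (1.53). Psmd9 (0.48) was the 1 lower in every block; Psmd11 (0.50) and Psmd10 (0.53) were lower without it. The median ratio was 1.04 in both sorts, beside 0.94 over all genes in HIP and 0.94 in Ins. Psmd14 and Psmd7 were above 1.5 in both sorts, and Psmd13 and Psmd3, which lead in HIP, had 0.48 and 0.43 in Ins, a contrast that was not tested.

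None of the 3 immunoproteasome genes was called between activated and Tfh cells in either sort, and neither was Psme1 or Psme2. Psmb8 had ratios of 1.07 in HIP and 1.12 in Ins, Psmb9 0.94 and 1.03, and Psmb10 0.98 and 0.88. Psme1 had 0.98 and 1.35 and Psme2 1.41 and 0.99. Psmb5 had 0.92 and 1.30, Psmb6 1.26 and 1.44, Psmb7 1.33 and 0.58, Psmb3 1.40 in HIP, and Psmd4 0.88 and 1.49. Interferon response genes were higher for 7 and lower for 2 of 11 in HIP, with a median of 1.61, led by Iigp1 (3.78) and Gbp4 (3.00) with Socs1 (0.26) and Gbp2 (0.42) lowest. In Ins 4 of 11 were higher and 4 lower, from Isg15 (0.079) and Socs1 (0.16) to Irf1 (2.39) and Irf7 (8.39). Of all genes, 21.9% were higher and 27.6% lower in HIP, and 27.9% and 33.2% in Ins. Class I genes had medians of 1.35 and 1.05, with Calr (1.98) and Tap2 (1.54) highest and Canx (0.50) and Nlrc5 (0.86) lowest in HIP, and B2m (1.49) and Nlrc5 (1.48) highest and Erap1 (0.58) and Tap2 (0.66) lowest in Ins. Among other proteasome genes Usp14 (1.51) and Uchl5 (1.2) were highest and Txnl1 (0.37) and Psmf1 (0.69) lowest in HIP, and Pomp (2.47) and Nfe2l1 (2.31) highest and Shfm1 (0.75) and Psmg4 (0.96) lowest in Ins. Ufd1l was the lowest ubiquitin or p97 gene in both sorts (0.56 and 0.33), followed by Vcp (0.55) in Ins; Vcp and Uba1 (both 1.13) were highest in HIP and Ubb (1.43) and Uba1 (1.32) in Ins.

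Between the sorts, Psmb5 had lower means in HIP than in Ins cells of the same class in both non-dividing classes compared. In activated cells its block means were 204 and 296 TPM in HIP and 316, 804 and 568 TPM in Ins, so the blocks did not overlap, and the class means were 255 and 553 TPM (ratio 0.46). Of the 40 proteasome genes tested there, 2 were lower in this way, a share like that of all genes, 5.07% of 6079. In Tfh cells the block means were 191 and 376 TPM in HIP and 317, 323 and 604 TPM in Ins, which overlap, and the class means were 277 and 427 TPM (0.65). Psmb5 was detected in 25.7% of HIP (19.4 to 32.9) and 39.8% of Ins (33.0 to 46.9) non-dividing cells. These intervals cover counting error only and ignore the spread between animals, so they cannot compare the sorts. The pooled cells also differ in make-up, with 3 Tregs in HIP and 115 in Ins. In dividing cells the ratio was 1.16.

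In Tfh cells, 4 of 41 proteasome genes were called higher in HIP and 5 lower, beside 24.2% and 22.4% of all 5779 genes, and 3 and 1 by the stricter call, beside 11.1% and 6.63%. The 3 were Psmc1 (250 against 127 TPM, 1.96), Psmb2 (536 against 345 TPM, 1.55) and Psmd4 (402 against 264 TPM, 1.52). Psme4, the PA200 cap, was detected in 1 of 111 HIP (0.90%, 0.023 to 4.9) and 7 of 61 Ins Tfh cells (11.5%, 4.7 to 22.2), with means of 0.041 and 19.4 TPM. It was tested only through its detection in the Ins cells, so its call is no finding. Its Ins block means were 24.4, 1.6 and 33.0 TPM, so 1 Ins block lay far below the others. The next lowest ratios were Psma4 (0.55) and Psmd2 (0.62), and the chaperone Psmd9 (1.87) was high without keeping that side in every block. The median ratio was 1.06 beside 1.01, but it was 0.91 in cells with 2000 to 4000 genes and 0.94 without the first HIP block, so its side of 1 was not kept.

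Psmb8, Psmb9, Psme1 and Psme2 had ratios from 0.84 to 1.06 in Tfh cells of HIP over Ins. Psmb10 was called lower, but not in every block. Psmb8 had a ratio of 0.96, with block means of 1893 and 1507 TPM in HIP and 1650, 1783 and 1893 TPM in Ins, which overlap. Psmb9 had 1.06 and Psmb10 0.64, whose Ins block means spread from 122 to 428 TPM. Psme1 and Psme2 had 0.95 and 0.84, Psmb6 and Psmb7 1.08 and 0.70, Psmb3 0.74 and Psmd14 1.47.

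In activated cells, 8 of 40 proteasome genes were called higher in HIP and 5 lower, beside 29.9% and 27.9% of all 6079 genes, and 1 and 2 by the stricter call, beside 12.8% and 5.07%. Psmd3 had 184 against 43.4 TPM (4.23), and the 2 lower were Psmb5 and Psmd1 (50.7 against 134 TPM, 0.38). Psmb3 had 846 against 330 TPM (2.56), but its Ins block means were 733, 76.7 and 184 TPM, and 1 of them lay above the lower HIP block of 724 TPM. Psmd10 (4.04, tested only through its detection in HIP cells) and Psmd13 (3.60) were next to Psmd3, and Psmd9 had 0.61. Psmb8, Psmb9 and Psmb10 had ratios of 0.92, 0.96 and 0.71, Psme1 and Psme2 0.69 and 1.21, Psmb6 and Psmb7 0.94 and 1.61, and Psmd4 and Psmd14 0.90 and 1.17. The median ratio was 1.02 beside 1.00, and the Ins group had 25 cells in 3 blocks of 7 to 10.

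In dividing cells, 2 of 42 proteasome genes were called higher in HIP and 7 lower, beside 28.1% and 33.5% of all 9539 genes, and 1 and 5 by the stricter call, beside 5.94% and 13.9%. Psmb10 had 299 against 149 TPM (2.01) and was present in 9 of 9 HIP cells but 24 of 35 from Ins. The alpha ring subunits Psma6 (245 against 537 TPM, 0.46), Psma4 (0.60) and Psma3 (0.66), with Psmb2 (0.60) and Psmd3 (0.51), were lower in HIP. Psme3 (0.39) was lowest and Psme4 (2.74) highest, each at under 15 TPM, and Psme2 had 0.62. Psmb8 and Psmb9 had 0.87 and 1.49, Psmb6 and Psmb7 1.21 and 1.16, Psme1 1.12, Psmb3 0.82, Psmd4 0.87 and Psmd14 0.91. The median ratio was 0.98 beside 0.97, and 1.26 without the larger HIP block, which leaves 2 HIP cells. The make-up of this class differs between the sorts, as the Foxp3 values show, and its part was not tested.

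Other pathway genes between the sorts gave median ratios between 0.73 and 1.18 in the list and class combinations compared. In Tfh cells, Psmf1 (2.33) was highest and Psmg4 (0.21) and Psmg1 (0.75) lowest among other proteasome genes. Among the ubiquitin and p97 genes Vcp (0.74) and Uba1 (0.95) were lowest. Interferon response genes had a median of 0.79, from Isg15 (0.24) and Iigp1 (0.33) to Gbp2 (2.25) and Socs1 (3.90), and class I genes 1.03, from Pdia3 (0.61) and Tap2 (0.67) to Nlrc5 (1.2) and Tapbp (1.32). In activated cells the interferon list had a median of 1.05, from Irf7 (0.16) and Irf1 (0.61) to Isg15 (5.06) and Socs1 (6.32), and the class I list 1.00, from Canx (0.67) and Nlrc5 (0.70) to Calr (1.74) and Erap1 (3.04). In dividing cells the interferon list had a median of 0.73 and the class I list 0.79, where Tap2 (0.47) and Calr (0.55) were lowest and Tapbp (1.2) and Nlrc5 (3.36) highest.

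The range of each gene over the 8 groups of 9 or more cells set the steady members apart from the variable ones. Psmb1 varied least, from 840.0 TPM in HIP Tfh to 1253 TPM in Ins activated cells, a 1.49-fold range. Psma3 (1.51-fold), Psmb4 (1.64), Psma1 (1.65), Psme2 (1.69) and Psmb8 (1.73) followed, so the most abundant immunoproteasome transcript was among the least variable. Among genes above 100 TPM in every group, none of the catalytic subunits ranged by more than 2.80-fold, which was Psmb7. Psme1 ranged 3.03-fold, from 356 TPM in cluster 4 to 1080 TPM in Ins activated cells, and Psmd3 4.56-fold, from 40.2 TPM in HIP dividing to 184 TPM in HIP activated cells. The 3 smallest groups, of 9, 21 and 25 cells, held the lowest or the highest mean of 37 of the 43 genes.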

How the data were processed

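Single CD4 T cells sorted by tetramer from mouse islets were sequenced as full-length SMART-Seq2 libraries, per the labels' protocols. The submitters' processing notes name TopHat, Bowtie, RSEM 1.2.8 and the build mm10, with each tool's role not given in the sources used here. As for units, the authors' deposited table holds natural log values, the exponential of which minus 1 sums to 100000 in every cell, so they were read as ln(TPM/10 + 1) and turned back into TPM. The authors' deposited annotation gives each cell's class and a count of genes above 0, and this number matched the table's values in 441 of 441 cells, as the sort and class matched the labels. Duplicate cells were looked for and 0 found. Sorting was of single cells, and doublets were not called. How the authors clustered the cells was not stated in the labels.

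For each of 9 comparisons the mean TPM of each gene was divided between groups over the whole table (Python 3.11.15, NumPy 2.4.6, pandas 2.3.3, SciPy 1.17.1; figures with matplotlib 3.10.9), for genes detected at 1 TPM in at least 10% of either group. The computation was tested on simulated data. TPM keeps no depth, so no interval of a level was made, and a listed 0 may mean that capture failed. Named throughout were Psmb3, the catalytic subunits, Psme1 to Psme4, Psmd4 and Psmd14. In each comparison the 3 largest and 3 smallest ratios, every gene called by the stricter rule and, of each pathway list, up to 2 genes at either end were named as well, except for items that are not reported here. The members, lists and rules were chosen with earlier results of these data known. Alternatives were the scale, the detection level and filter, a fold of 2, capped values, a fixed range of genes per cell, leaving out each block and rescaling without the ribosomal RNA precursor Rn45s, alone or with Igj and Mzb1. HIP Tregs, 3 cells, entered no comparison of their own.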

Additional observations from a re-analysis of the deposited data

Results flagged for a closer look

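Psmb2, a structural beta subunit of the core, had ratios on opposite sides of 1 in dividing cells of the 2 sorts. Its ratio of mean TPM, dividing over other T cells, was 0.887 in HIP and 1.46 in Ins, with block ratios of 0.851 to 0.865 in HIP and 1.10 to 1.74 in Ins. Every block of a sort lay on 1 side of 1, and the difference was not tested. Neither ratio reached the 1.5-fold call. The gene was picked out for this pattern, and the share of all genes that show it was not counted. The HIP dividing class held 9 cells, 2 of them in 1 block.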

How the results depend on the processing

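A fold of 2 cannot move the median ratio of the proteasome genes, so that alternative kept it by construction. The median ratio moved by less than 1 SD of its values over blocks, or pairs of blocks, under 112 of 130 alternatives, that one included. On mean log2(TPM + 1) and mean log2(TPM + 10), which follow the share of cells detected, it went from 1.23 to 12.1 and 4.34 in Ins dividing cells, from 1.24 to 14.0 and 4.58 in HIP dividing cells, from 0.82 to 2.39 and 1.60 in cluster 4, from 1.04 to 1.35 and 1.21 in HIP activated over Tfh cells, and from 1.06 to 0.918 and 0.943 in Tfh cells of HIP over Ins. With values capped at the 95th percentile it was 0.942 in cluster 4, 1.11 in HIP activated over Tfh cells and 0.962 in Tfh cells of HIP over Ins, and in cells with 2000 to 4000 genes the last was 0.910. Without Rn45s, Igj and Mzb1, an alternative chosen after seeing the data, cluster 4 had 0.973. Leaving out single blocks gave 0.942 to 1.06 for Tfh cells and 0.885 to 1.26 for dividing cells of HIP over Ins. The median of per-cell shares was 100% for Psmb8 and 60.7% for Psmb9 in their pairs. Counts of called genes moved by over 1.5 times in 77 of 260 values: over the alternatives, genes called higher numbered 0 to 40 in Ins dividing cells (main 6), 7 to 38 in HIP dividing cells (13) and 0 to 31 in cluster 4 (2), and those called lower 0 to 5 (4), 0 to 8 (5) and 0 to 15 (12). Without single blocks the higher genes numbered 3 to 11, 10 to 20 and 2 to 9 in these 3 groups. The count of higher genes ranged from 4 to 13 for Tregs over Tfh cells (7), 1 to 8 and 1 to 16 for activated over Tfh cells in Ins (7) and HIP (5), and 0 to 4, 4 to 15 and 2 to 15 for HIP over Ins in Tfh (4), activated (8) and dividing cells (2). Lower genes numbered 2 to 6 (5), 6 to 12 (11), 0 to 5 (4), 1 to 10 (5), 2 to 7 (5) and 2 to 11 (7) in the same order. Without single blocks these 6 comparisons had 8 to 9, 8 to 11, 8 to 9, 3 to 8, 8 to 12 and 2 to 14 higher genes and 6 to 9, 7 to 14, 3 to 11, 3 to 9, 5 to 8 and 5 to 11 lower ones. The cause of these shifts was not tested. Shares of all genes called under the same alternatives are not given here. The counts therefore show dependence on processing and nothing particular to the proteasome genes. The medians on the log scales likewise stand without values over all genes. No paired analysis was possible because each sort is 1 sample. Unknown depth limits what a share of cells can show.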
